A study of Homo sapiens
Mus musculus with 2 samples.

Results

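Lypd8, Ly6d, Ly6c1, Ly6a and Ly6e, 5 of the 25504 genes in the deposited tables, encode surface proteins of the Ly6/uPAR family, chosen by name and described here across the cell classes of the mouse colon. The cells were colonic epithelial cells of 1 untreated wild-type C57Bl6 mouse, sequenced in a single run as 2 libraries of different cells, called replicates 1 and 2. The epithelium was dissociated with EDTA and with collagenase and DNase, and viable cells were enriched on magnetic columns. Cells were then barcoded by inDrop, a droplet method, together with added cells of the human leukaemia line K562, which were not analysed here. The mouse carried no mutation or treatment named in the labels, so all comparisons are between cell classes of the same animal. Every p-value measures only how class differences vary between these 2 libraries, a spread that may be technical. That spread was estimated over all classes together and moderated over the genes tested, so it is not that of 1 gene alone.

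Ly6/uPAR proteins share a compact domain of loops held by disulfide bonds, known as the three-finger fold, and most are fixed to the outer face of the membrane by a glycosylphosphatidylinositol (GPI) lipid anchor. In the colon the family is best known through Lypd8, a heavily glycosylated protein of the epithelial surface that binds flagellated bacteria and keeps them away from the epithelium. Ly6a, also called Sca-1, marks blood stem cells and several lymphocyte subsets in mice. Ly6c1 is used as a marker of monocytes, T cell subsets and endothelium. Ly6e, once called thymic shared antigen 1, and Ly6a can be induced by interferon. Ly6d is known from B cell precursors and from stratified epithelia.

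Replicate 1 held 1738 barcodes with 8602490 UMIs (unique molecular identifiers, which mark single captured molecules) and a median of 4615.5 UMIs a barcode, and replicate 2 held 664 barcodes with 3951918 UMIs and a median of 4756.5. CEL-Seq counts a transcript by its 3′ end, so levels are given as CPM, the UMIs of a gene per 1000000 UMIs, without scaling by gene length. After 5% of barcodes were left out as likely doublets, 1651 and 631 barcodes formed 12 clusters, and 9 of these took a name from marker genes. None of the 5 genes was used for clustering. Colonocyte-like cells numbered 541 in replicate 1 and 162 in replicate 2, goblet-like cells 268 and 53, deep crypt secretory-like cells 270 and 78, stem-like cells 170 and 57, and cycling-like cells 104 and 43. Secretory means the goblet-like and deep crypt secretory-like classes, and crypt means the stem-like and cycling-like classes. The stem-like name is weak: of the stem markers only Cdca7 was among the 10 leading genes, and Lgr5 stood at 28.4 and 12.5 CPM. The cycling-like class also had a deep crypt secretory marker score of 1.79. Median mitochondrial shares of barcodes were 4.43% in replicate 1 and 8.91% in replicate 2.

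Lypd8 was the most abundant of the 5 genes. It had 97091 UMIs in replicate 1, where it ranked 2 among all genes, and 32016 UMIs in replicate 2, where it ranked 10. Ly6a followed with 19677 and 7977 UMIs and Ly6e with 16212 and 5826 UMIs. Ly6c1 had 1086 and 973 UMIs, and Ly6d had 805 and 319 UMIs. Lypd8, Ly6a, Ly6c1 and Ly6d were concentrated in colonocyte-like cells. Of the UMIs in the 1651 and 631 clustered barcodes, a smaller base than the totals above, these cells held 76.1% and 67.7% of the Lypd8 UMIs, 74.7% and 65.9% of the Ly6a UMIs, 79.1% and 69.1% of the Ly6c1 UMIs, and 94.0% and 79.1% of the Ly6d UMIs. The same cells held 18.0% and 15.3% of the Ly6e UMIs, while they held 35.1% and 29.5% of all UMIs in the clustered barcodes. For Ly6e the largest share, 32.0% and 29.9%, lay in deep crypt secretory-like cells.

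**Figure D1:**
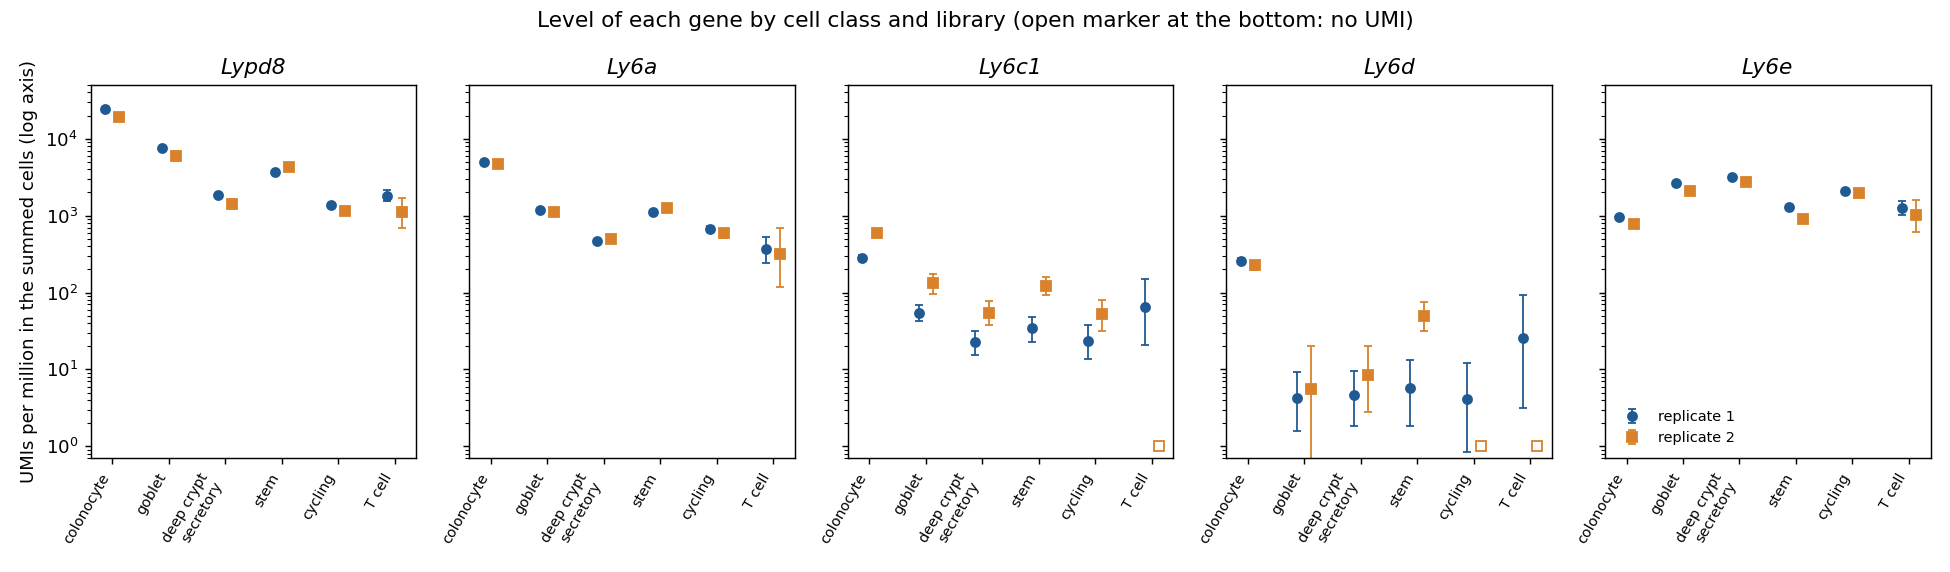
Level of each of the 5 genes in CPM (log axis) by cell class, with circles for replicate 1, squares for replicate 2 and exact 95% Poisson intervals that cover counting error only. Lypd8, Ly6a, Ly6c1 and Ly6d stand highest in colonocyte-like cells of both libraries, and Ly6e stands highest in deep crypt secretory-like cells and, among the 5 epithelial classes, lowest in colonocyte-like cells.

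Lypd8 stood at 24670.2 CPM in colonocyte-like cells of replicate 1 and 19073 CPM in those of replicate 2. Goblet-like cells had 7530 and 5975 CPM, and stem-like cells had 3681 and 4232 CPM. Deep crypt secretory-like cells had 1851 and 1431 CPM and cycling-like cells 1373 and 1135 CPM. In each library the order was colonocyte-like, goblet-like, stem-like, deep crypt secretory-like and cycling-like, with no overlap of the counting intervals between neighbours. Lypd8 was the most abundant transcript of colonocyte-like cells in replicate 1 and ranked 4 in replicate 2, and it made up 2.47% and 1.91% of their UMIs.

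T cell-like cells, which should lack Lypd8, held it at 1815 CPM in replicate 1 (exact 95% Poisson interval 1526 to 2141, counting error only) and 1115 CPM in replicate 2 (690.5 to 1705). A Lypd8 UMI was found in 84.4% of 45 and 77.8% of 9 such cells, at median depths of 1668 and 2138 UMIs. The goblet mucus gene Zg16 was likewise found in them, at 4044 and 3187 CPM against 96683 and 83230.0 CPM in goblet-like cells. Goblet-like cells had 4.15 and 5.36 times the T cell-like Lypd8 level, stem-like cells 2.03 and 3.79 times, deep crypt secretory-like cells 1.02 and 1.28 times and cycling-like cells 0.757 and 1.02 times. Per cell, deep crypt secretory-like cells held a mean of 10.4 and 10.7 Lypd8 UMIs and cycling-like cells 9.63 and 10.1, against 3.11 and 2.33 in the shallower T cell-like cells. Zg16 in cycling-like cells was at 0.186 and 0.412 times its T cell-like level, and T cell-like cells had a median doublet score of 0.75, the highest of any cluster. How much of the Lypd8 in deep crypt secretory-like and cycling-like cells came from free RNA was not tested, and no expression is read from it.

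Over single cells the Lypd8 medians differed between the classes, while their ranges overlapped. Per 10000 UMIs, the median colonocyte-like cell held 219 Lypd8 UMIs in replicate 1 and 168 in replicate 2, and 10% of these cells held less than 92.2 and 65.1. The median goblet-like cell held 66.4 and 56.7, and 10% of these cells held more than 124 and 85.6. The medians of stem-like cells were 24.7 and 22.4, and 10% of them held more than 75.0 and 85.0. The lowest colonocyte-like cells thus overlapped with the highest goblet-like cells in each library. Goblet-like cells also had a higher colonocyte marker score than deep crypt secretory-like cells, at -0.88 against -1.62. The carbonic anhydrase gene Car4 was richer in goblet-like cells (88.5 and 72.6 CPM) than in deep crypt secretory-like ones (33.1 and 54.8 CPM). Its relative Car1 had no common direction in the libraries (31.4 and 22.4 against 25.2 and 24.0 CPM). The part of colonocyte RNA in the Lypd8 level of goblet-like cells was not tested.

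Ly6a stood at 4941 and 4641 CPM in colonocyte-like cells. Goblet-like cells had 1175 and 1106 CPM, deep crypt secretory-like cells 467 and 492 CPM, stem-like cells 1101 and 1273 CPM, and cycling-like cells 662 and 591 CPM. Goblet-like and stem-like cells changed places between the libraries, and their counting intervals overlapped in both. Deep crypt secretory-like cells were lowest of the epithelial classes in both libraries. T cell-like cells had 363 and 319 CPM, from 28 and 6 UMIs.

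Ly6c1 stood at 283 and 598 CPM in colonocyte-like cells, against 54.2 and 131 CPM in goblet-like, 22.5 and 54.8 CPM in deep crypt secretory-like, 34.1 and 123 CPM in stem-like and 23.3 and 52.1 CPM in cycling-like cells. The colonocyte-like value was the highest in each library. In every epithelial class the level was higher in replicate 2, with a ratio of 2.11 in colonocyte-like, 2.42 in goblet-like, 2.44 in deep crypt secretory-like, 3.601 in stem-like and 2.23 in cycling-like cells. For Lypd8, Ly6a and Ly6e the same ratio of replicate 2 to replicate 1 lay between 0.697 and 1.16 over these classes. The mitochondrial share was also higher in replicate 2, with a median of 11.7% in colonocyte-like cells of replicate 2 and 6.0% in those of replicate 1, and its part in the Ly6c1 difference was not tested. Ly6c2, a near-identical neighbour whose reads the counting could confuse with Ly6c1, had 62 UMIs over all barcodes.

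Ly6c1 and Ly6a are also made by endothelium. The 6 endothelial markers summed to 19.1 and 21.9 CPM in colonocyte-like cells and to between 10.2 and 36.4 CPM over the epithelial classes, with colonocyte-like cells inside the range of the other classes in each library. The 10 T cell markers summed to 20.5 and 83.6 CPM in colonocyte-like cells, 18.5 to 80.5 CPM in the other epithelial classes, and 29111 and 15191 CPM in T cell-like cells.

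Ly6d stood at 260 and 226 CPM in colonocyte-like cells and was close to undetected in the other classes. Goblet-like cells held 6 and 2 UMIs (4.28 and 5.59 CPM), deep crypt secretory-like cells 7 and 5 UMIs (4.64 and 8.57 CPM) and cycling-like cells 3 and 0 UMIs (4.11 and 0 CPM). Stem-like cells held 5 UMIs in replicate 1 (5.68 CPM) and 24 in replicate 2 (49.9 CPM), the 24 in 5 cells. T cell-like cells held 2 and 0 UMIs, from far fewer UMIs in all. Over both libraries together, colonocyte-like cells had 48.2 times the Ly6d level of secretory cells (exact 95% interval 31.1 to 79.3) and 19.4 times that of crypt cells (13.6 to 28.5). For the ratio to crypt cells the libraries differed more than the counting interval allows. The ratio to crypt cells was 52.2 (26.4 to 121) in replicate 1 and 8.15 (5.35 to 12.98) in replicate 2, where 2 stem-like cells held 83.3% of the 24 stem-like UMIs. The ratio to secretory cells was 58.1 (33.8 to 110) in replicate 1 and 30.4 (14.5 to 76.5) in replicate 2, with overlapping intervals.

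Ly6d was also unevenly spread among colonocyte-like cells. It had a UMI in 33.6% of them in replicate 1 (exact 95% interval 29.7% to 37.8%) and 36.4% in replicate 2 (29.0% to 44.3%), at median depths of 4654 and 5577 UMIs. In goblet-like cells the share was 2.24% and 3.77%, at 5117 and 5813 UMIs. At 1500 UMIs a cell, 20.3% and 21.0% of colonocyte-like cells would be expected to show it. The 55 and 17 colonocyte-like cells richest in Ly6d held 70.4% and 64.3% of its UMIs, and single cells held up to 36 and 22. Ly6c1 had a like level in replicate 1, yet had a UMI in 57.1% of the same cells, and the 55 cells richest in it held 41.3% of its UMIs. The variance of Ly6d counts over cells was 8.64 times their mean in replicate 1 and 7.59 times in replicate 2, against 2.55 and 4.62 times for Ly6c1. Such ratios also rise with the level and with differences in depth.

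Ly6e had another pattern. Deep crypt secretory-like cells held it at 3135 and 2704 CPM, goblet-like cells at 2645 and 2117 CPM, cycling-like cells at 2070 and 1986 CPM, stem-like cells at 1297 and 905 CPM and colonocyte-like cells at 962 and 769 CPM. The order was the same in both libraries, although the intervals of goblet-like and cycling-like cells overlapped in replicate 2. T cell-like cells, which may express Ly6e themselves, had 1270.2 and 1009 CPM, above the colonocyte-like values in both libraries though its counting interval held the colonocyte-like value in replicate 2. Colonocyte-like cells held 0.757 and 0.762 times the T cell-like Ly6e level, so no background level can be set for Ly6e from these cells.

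UMIs were summed per library and class and compared with edgeR's quasi-likelihood test over 8011 genes kept out of clustering, with the library as a block and Benjamini-Hochberg adjustment. Each class difference is a log2 fold change with a standard error, from 2 libraries. That error was derived as the absolute log2 fold change divided by the square root of edgeR's F statistic. Against crypt cells, colonocyte-like cells were higher in Lypd8 by 3.74 ± 0.11, in Ly6a by 2.93 ± 0.12, in Ly6c1 by 3.54 ± 0.18 and in Ly6d by 5.40 ± 0.29 (edgeR adjusted p of 4.56e-48 for Ly6a and between 2.44e-61 and 6.28e-37 for the others). These are 4 of 5 genes, where 38.1% of all tested genes were called, 20.4% as higher and 17.8% as lower. Each of the 4 was higher in both libraries. The size of the Ly6d difference is uncertain, since its fitted value depends on a cycling-like sum without a UMI and its ratio differed between the libraries as given above. Ly6e was lower by 0.33 ± 0.12 on the log2 scale (edgeR adjusted p = 0.0268), in both libraries. That call is fragile, since it missed the threshold with DESeq2 (adjusted p = 0.0653) and turned to 0.10 higher when crypt meant stem-like cells alone (adjusted p = 0.690).

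Against secretory cells the same 4 genes were higher in colonocyte-like cells, by 2.91 ± 0.11 for Lypd8, 2.89 ± 0.12 for Ly6a, 3.12 ± 0.16 for Ly6c1 and 5.70 ± 0.27 for Ly6d. Ly6e was lower, with a log2 fold change of -1.41 ± 0.13 (edgeR adjusted p = 1.53e-18). All 5 genes were called, where 34.7% of all tested genes were, 18.4% as higher and 16.3% as lower. The comparisons with crypt and with secretory cells share the colonocyte-like sums.

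Secretory cells were higher than crypt cells in Lypd8 by 0.83 ± 0.10 (edgeR adjusted p = 1.04e-12) and in Ly6e by 1.08 ± 0.10 (edgeR adjusted p = 1.34e-17), 2 of 5 genes, where 22.6% of all tested genes were called, 12% as higher and 10.6% as lower. Ly6c1 differed by 0.43 ± 0.21, Ly6a by 0.04 ± 0.11 and Ly6d by -0.30 ± 0.64, and none of these passed the test. With crypt taken as stem-like cells alone, Lypd8 no longer passed the test (-0.036, edgeR adjusted p = 0.899) and Ly6a was lower in secretory cells (-0.44, edgeR adjusted p = 0.00524). Ly6e stayed higher, by 0.64 or more in every alternative run.

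Within the secretory group, goblet-like cells were higher than deep crypt secretory-like cells in Lypd8 by 2.38 ± 0.14, in Ly6a by 1.60 ± 0.15 and in Ly6c1 by 1.60 ± 0.26 (edgeR adjusted p = 7.86e-32, 4.73e-17 and 3.80e-07). These are 3 of 5 genes, where 12.8% of all tested genes were called, 6.98% as higher and 5.85% as lower. Ly6e did not pass the test at 0.04 ± 0.14, nor did Ly6d at 0.04 ± 0.72, for which these classes held 8 and 12 UMIs over both libraries. In CPM, Ly6e was lower in goblet-like cells of both libraries, and a scaling to total UMIs gave -0.30 (edgeR adjusted p = 0.0678).

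**Figure D2:**
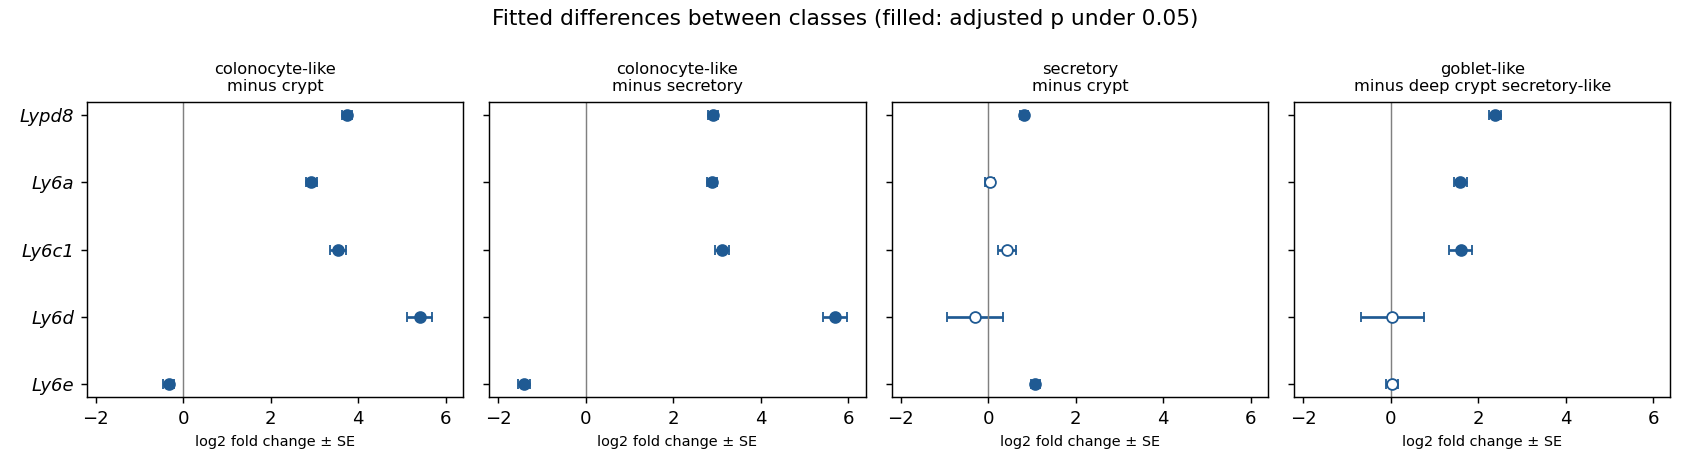
Log2 fold changes of the 5 genes between classes with standard errors derived from edgeR's F statistic over 2 libraries, filled where the adjusted p was under 0.05. Lypd8, Ly6a, Ly6c1 and Ly6d lie to the right of 0 and Ly6e to the left in both comparisons of colonocyte-like cells, and Lypd8, Ly6a and Ly6c1 lie to the right between goblet-like and deep crypt secretory-like cells.

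The 3 colonocyte-like clusters, named after the first of their leading genes, differed in these genes. The Slc37a2-led cluster was set against the mean of the Emp1-led and Reg3b-led clusters, a comparison chosen after the values had been seen. Lypd8 stood at 30332 CPM in Slc37a2-led, 24147 CPM in Emp1-led and 14666 CPM in Reg3b-led cells of replicate 1, and at 23366, 16886 and 12016 CPM in the same order in replicate 2. Ly6a stood at 6792, 3720.3 and 3327 CPM in replicate 1 and 6455, 3317 and 2702 CPM in replicate 2. Ly6c1 stood at 415, 204 and 157 CPM and at 896, 357 and 338 CPM. In each library these 3 genes had the same order of clusters.

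Ly6c1 was higher in Slc37a2-led cells by 1.43 ± 0.15 on the log2 scale, Ly6a by 1.17 ± 0.11, Ly6e by 1.06 ± 0.12 and Lypd8 by 0.85 ± 0.10 (edgeR adjusted p = 1.89e-19, 2.05e-23, 1.83e-15 and 2.76e-14). These are 4 of 5 genes, where 3.35% of all tested genes were called, 2.4% as higher and 0.949% as lower. Without the library block the Lypd8 difference missed the threshold (0.84, edgeR adjusted p = 0.276). Ly6e, lower in colonocyte-like cells as a class, stood at 1306 and 1077 CPM in Slc37a2-led cells, at 596 and 496 CPM in Emp1-led cells and at 880.3 and 563 CPM in Reg3b-led cells. Ly6d did not pass the test (0.37 ± 0.17, edgeR adjusted p = 0.347). It stood at 285 and 204 CPM in Slc37a2-led, 304 and 261 CPM in Emp1-led and 141 and 200.2 CPM in Reg3b-led cells.

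**Figure D3:**
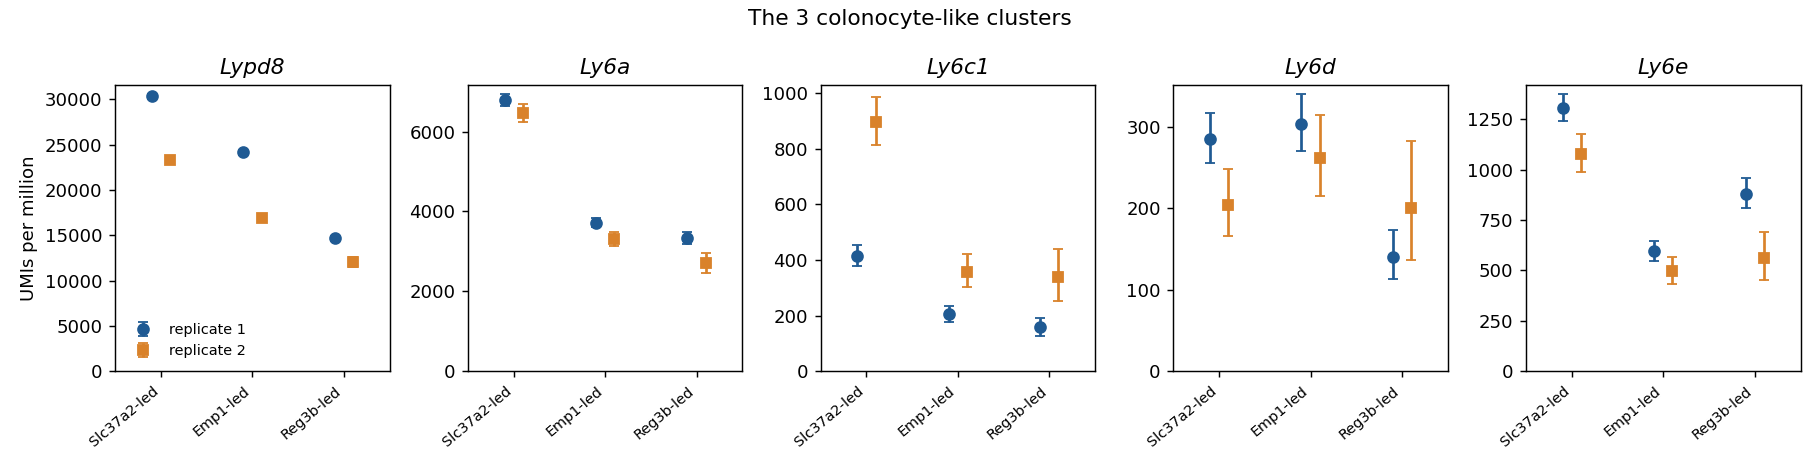
Level of each gene in CPM in the 3 colonocyte-like clusters, with circles for replicate 1, squares for replicate 2 and exact 95% Poisson intervals. Lypd8, Ly6a, Ly6c1 and Ly6e are highest in the Slc37a2-led cluster of both libraries, while Ly6d is highest in the Emp1-led cluster.

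Colonocyte-like cells were also ordered by a surface score, the mean level of 8 genes of mature surface colonocytes such as Krt20, Aqp8 and Slc26a3, and divided into 5 groups of equal size in each library. Such a group is a range of the score and not a cell type. From the lowest to the highest score group Ly6d stood at 80.1, 207, 383, 277.2 and 325 CPM in replicate 1 and at 41.9, 138, 290.1, 304 and 313 CPM in replicate 2. The highest score group thus had 4.06 and 7.46 times the level of the lowest, and most of the difference lay below the middle group. For Lypd8 the same ratio was 1.37 and 1.53, for Ly6a 0.863 and 1.26, for Ly6c1 0.933 and 1.02 and for Ly6e 0.471 and 0.772. Ly6e was highest in the second score group of both libraries, at 1248 and 1188 CPM. Depth and clusters changed along the score too: the median depth was 3951 and 3891 UMIs in the lowest group and 6092 and 8587 UMIs in the highest, and Emp1-led cells made up 7.34% and 9.09% of the lowest group and 88.9% and 71.9% of the highest. Their part in these ratios was not tested.

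Cell by cell, Lypd8 and Ly6a varied together among colonocyte-like cells. Spearman's rho of their levels was 0.661 over 541 cells of replicate 1 and 0.681 over 162 cells of replicate 2, given as a description since cells of a library share their source and depth. For Ly6c1 and Ly6a it was 0.488 and 0.646, and for Ly6a and Ly6e 0.421 and 0.411. For Ly6d and any of the others it lay between 0.026 and 0.175. Cells with 5 or more Ly6d UMIs, 44 and 18 cells, were chosen after the values were seen. Their median depths were 7647 and 9779 UMIs, against 3955 and 5074 in those with none. A choice by UMI count itself favours deeper cells, so nothing is read from this depth difference. The cells with 5 or more held Lypd8 at 25816 and 20877 CPM against 23914 and 19004 CPM in cells without Ly6d.

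Across 20 sums of 10 clusters in 2 libraries, the genes most like each of the 5 were sought among 7141 genes by Pearson's r of log2 levels. This is a description, as the sums of a cluster share their cells' make-up and those of a library its depth. Closest to Lypd8 was Cdhr5, a protocadherin of the microvillus brush border (r = 0.974), before Slc6a8, a creatine transporter gene, Krt20, a keratin gene, Slc25a20 and Mgst3. Ly6a was most like Prdx6, a peroxiredoxin gene (0.977), before Plac8, Sult1b1, Cd38 and Tmem236. Ly6d was most like Bbox1 of carnitine synthesis (0.958), before Mylk, the chloride exchanger gene Slc26a3, Prss30 and Clca4b. Ly6c1 was most like Gm29123 (0.948), before Ret, Tctex1d1, Prdx6b and Tcf4. Ly6e was most like Ddost, a subunit of the oligosaccharyltransferase of the endoplasmic reticulum (0.959), before Sh3bgrl3, the chaperone genes Hspa5 and Pdia3, and Sec24d of the COPII vesicle coat. Lypd8 and Ly6a had an r of 0.949 with each other, and Ly6e had negative values with all 4 others, from -0.72 to -0.55.

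Of 37 other genes of the Ly6/uPAR fold, 30 were in the tables and 22 had enough UMIs to be tested. Against crypt cells 9 were higher in colonocyte-like cells and 1 was lower, where 20.4% and 17.8% of all tested genes were, with a median log2 fold change of 0.89 against 0.08 over all tested genes. Ly6i rose most clearly, to 36.8 and 66.5 CPM in colonocyte-like cells against 2.27 and 4.16 CPM in stem-like and 2.74 and 0 CPM in cycling-like cells (log2 fold change 4.73 ± 0.42). Ly6f (3.05 ± 0.54) was also higher. It had 63 UMIs in colonocyte-like and 12 in crypt cells, a pooled ratio of 3.39 (1.81 to 6.92). That ratio is per total UMIs over pooled crypt cells, whereas the fit rescaled the sums and averaged the stem-like and cycling-like log levels. The measures are thus unlike, and from so few UMIs the size is uncertain. Psca, a prostate stem cell antigen gene first named in humans, had 18 UMIs in colonocyte-like and 2 in crypt cells, a ratio of 5.82 (1.39 to 51.7). Gml had 28 UMIs in colonocyte-like cells and 0 in crypt cells and was at least 6.04-fold higher against a limit of 3 UMIs over the crypt cells. DESeq2 called 5 of the 22 higher and 1 lower, as did a scaling to total UMIs. Of all called genes, 54.9% were higher with DESeq2 and 29.1% with that scaling. The shares of all tested genes called higher in these settings are not given here, so no excess is read from the 5. Reads of Ly6i, Ly6f, Ly6a and Ly6c1 can be confused among close copies, and how the authors' counting treated them is not given in the sources used here.

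Against secretory cells 5 of these 22 genes were higher in colonocyte-like cells, among them Ly6i (3.18 ± 0.33) and Ly6f (3.11 ± 0.49), and 4 were lower, near the 18.4% and 16.3% of all tested genes called in these directions, with a median of 0.15 against 0.03 over all tested genes, and of -0.05 against -0.17 under a scaling to total UMIs. Gml had 28 UMIs against 1 (ratio 28.2, 4.66 to 1153) and Gml2 20 against 1 (ratio 20.1, 3.22 to 835), from so few UMIs that the size is not known. Between secretory and crypt cells 5 were higher and 2 lower, where 12% and 10.6% of all tested genes were. Those 5 were Psca, Lypd6b, Ly6g6e, Ly6g6c and the urokinase receptor gene Plaur, named here after their values were seen. Goblet-like cells held Psca at 39.2 and 36.3 CPM, against 2.65 and 0 CPM in deep crypt secretory-like cells. It was higher there by 4.62 ± 0.57 (edgeR adjusted p = 2.49e-11). Ly6i (2.42 ± 0.37) and Ly6f (2.21 ± 0.49) were the 2 of 22 called in Slc37a2-led cells, both higher, as were Ly6a and Ly6c1. Of all tested genes 2.4% were higher and 0.949% lower in that comparison.

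Other GPI-anchored proteins moved in both directions. The 30 tested included 9 that were higher and 2 that were lower in colonocyte-like than in crypt cells (median 0.65), and 7 that were higher and 3 that were lower than in secretory cells (median 0.58). Of all tested genes 20.4% were higher and 17.8% lower than in crypt cells, and 18.4% were higher and 16.3% lower than in secretory cells, so the count against secretory cells is near that of all genes. Dpep1, a dipeptidase gene, stood at 434.3 and 320.3 CPM in colonocyte-like cells against 65.9 and 79.0 CPM in stem-like and 9.60 and 7.81 CPM in cycling-like cells (4.37 ± 0.21). Nt5e, the ecto-5′-nucleotidase CD73 (3.24 ± 0.26), and Alpi, the intestinal alkaline phosphatase (3.41 ± 0.53), were also higher. Cd24a, a heavily glycosylated adhesion protein gene, was lower than in crypt cells (-2.63 ± 0.19), at 35.3 and 38.0 CPM in colonocyte-like cells against 315 and 143 CPM in stem-like and 422 and 385 CPM in cycling-like cells. In Slc37a2-led cells 3 of the 30 were higher and 3 lower than in the other colonocyte-like clusters. The shares of all tested genes there were 2.4% higher and 0.949% lower. Among the genes that build and attach the GPI anchor, colonocyte-like cells were higher than crypt cells in 3 of 30 tested and lower in 3 (median -0.13), and 4 were higher and 2 lower than in secretory cells (median -0.02). Tmem246, also known as Pgap4, which adds a sugar to the side chain of the anchor, was higher by 1.09 ± 0.20 and 1.73 ± 0.21. Pigx was lower by 1.05 ± 0.34 and 0.90 ± 0.33 on the log2 scale, calls that DESeq2 did not make (adjusted p = 0.101 and 0.226). Scaled to total UMIs, 1 of these 30 genes was higher and 14 were lower than in crypt cells, with a median of -0.61 against -0.39 over all tested genes. That scaling moved all genes down, and 29.1% of all called genes were higher under it. The share of all tested genes called lower under it is not given here, so no loss is read from the 14.

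Of 40 tested interferon-stimulated genes, a list that bears on Ly6a and Ly6e, 27 were higher and 3 lower in colonocyte-like than in crypt cells, with a median of 1.39, and 27 were higher and 2 lower than in secretory cells, with a median of 0.92. The shares of all tested genes were 20.4% higher and 17.8% lower against crypt cells, and 18.4% higher and 16.3% lower against secretory cells. Irf7, a transcription factor of the interferon response, stood at 206 and 194 CPM in colonocyte-like cells against 62.8 and 69.8 CPM in goblet-like, 21.9 and 17.1 CPM in deep crypt secretory-like, 30.7 and 20.8 CPM in stem-like and 15.1 and 28.6 CPM in cycling-like cells. The antiviral genes Ifit1 (235 UMIs in colonocyte-like and 6 in crypt cells), Ifit2 (107 and 3) and Rsad2 (122 and 3) gave pooled ratios of 25.3, 23.1 and 26.3 with wide intervals (11.5 to 69.7, 7.68 to 114 and 8.79 to 129). Isg20, an exonuclease gene, was lower than in secretory cells (-2.76 ± 0.38), as was Ly6e. In Slc37a2-led cells, where Ly6a, Ly6c1 and Ly6e were higher, 4 of the 40 were higher and 2 lower, where 2.4% and 0.949% of all tested genes were, with a median of 0.09 against 0.08 over all tested genes. The 6 were the guanylate-binding protein genes Gbp2 and Gbp3, Igtp and Zbp1, all higher, and Ifit1 (-1.35 ± 0.31) and Ddx58 (-1.05 ± 0.33), both lower, named after their values were seen.

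TMM scaling keeps the median of all genes near 0, while a scaling to total UMIs put it at -0.39 between colonocyte-like and crypt cells, -0.17 against secretory cells, -0.24 between secretory and crypt cells and -0.43 between goblet-like and deep crypt secretory-like cells. The share of called genes that were higher then fell to 29.1%, 40.6%, 28.4% and 22.2%, against 53.4%, 53.1%, 53.1% and 54.4% with TMM. Of the genes called above, Lypd8, Ly6a, Ly6c1, Ly6d and Ly6e kept the direction of each call under this scaling.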

How the data were processed

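The deposited counts are whole numbers of UMIs per gene and barcode without normalization, per the file headers and the values, and 2 builds, GRCh38 and GRCm38, appear per the submitters' processing notes. For the aligner, annotation and barcode filter, the tools are not given in the sources used, so genes that overlap or resemble each other may share reads. No barcode of a library had the same counts over all genes as one of the other (0), and barcode sequences were not used here. Totals per library and medians per barcode are given with the results. The 5 genes, the lists and the comparisons were chosen with earlier results of these data known.

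Barcodes with at least 500 UMIs and 250 genes were kept (0 removed). A doublet score came from simulated pairs (2 per barcode) over 50 neighbours, and the highest 5% were left out of each library (87 and 33). Genes were divided by the md5 sum of the symbol into 12702 clustering and 12802 readout genes. Markers clustered; the 5 genes, mitochondrially encoded genes and list genes other than the markers Car4 and Rgmb did not. The 1500 most variable clustering genes, scaled to 10000 a cell, gave 30 principal components, a shared graph of 15 neighbours and Leiden clusters (leidenalg 0.10.2, resolution 1). Each cluster was named by its top marker score, given a score of at least 0.75, at least 3 markers in 10% of cells and a marker among the 10 leading genes. This scoring rule was settled after clusters were seen. Co-regulated genes fall on both sides, so tests are not independent of the clustering.

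UMI sums per library and class gave 10 sums, and readout genes with at least 20 UMIs were tested with edgeR 4.0.16 (R 4.3.3; glmQLFit, TMM, library as a block, 4 residual degrees of freedom, common dispersion 0.0130). A compartment is the mean of its classes. The fit over clusters had 14 sums and 6 residual degrees of freedom. The pairing by library holds by construction, since all classes come from the same 2 libraries. Calls are at an adjusted p under 0.05. DESeq2 1.42.0 was an alternative. Per gene list, the up to 4 called genes with the largest change in a colonocyte-like comparison are named, and likeness was computed on log2(CPM + 10) for genes with at least 200 UMIs.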

Additional observations from a re-analysis of the deposited data

How the results depend on the processing

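Over 428 recomputed values, 51 counts of called genes stayed within 1.5 times and 12 moved further, while 16 fold changes of the 5 genes reversed, 6 lost the threshold, 8 gained it and 3 moved. The excesses of Lypd8, Ly6a, Ly6c1 and Ly6d in colonocyte-like cells held in all 14 alternatives of both comparisons. The total UMI scaling, the stem-like crypt and all settings of the Slc37a2-led comparison were chosen after seeing the data. No other clustering run gave a stem-like cluster, so crypt is the class named cycling-like alone there. Csrp2 was the first leading gene of the stem-like cluster. At the higher resolution the cycling-like class included a Csrp2-led cluster of 203 cells. At the lower resolution its 356 cells had Csrp2 among their leading genes. Without the doublet filter and with nearly all genes clustering, a cluster with Csrp2 among its leading genes was left unnamed. The cause of each change below was not tested.

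With the classes not paired by the library block, Ly6e in colonocyte-like minus crypt missed the threshold (-0.32), as did Lypd8 in Slc37a2-led cells (0.84), and calls fell to 1168 (secretory minus crypt), 456 (goblet-like minus deep crypt secretory-like) and 93 (Slc37a2-led), against 1813, 1028 and 268. Ly6e minus crypt was also weaker with DESeq2 (-0.30), no count filter (-0.27), at most 15% mitochondrial UMIs (-0.28) and compartments summed (-0.34), and reversed with stem-like cells alone (0.10). That setting also reversed Lypd8 (-0.036), Ly6c1 (-0.072) and Ly6a (-0.44) in secretory minus crypt and moved Ly6d to -1.80. There Ly6a was -0.22 with total UMI scaling and -0.13 with compartments summed. Ly6d was 0.082 on thinned sums, and 1.92, 1.09, 0.98 and 1.64 without the doublet filter, at resolution 0.5 and 1.5 and with nearly all genes clustering. In the same order Ly6c1 was called at 0.92, 0.76, 0.72 and 1.09, and Ly6a was called without the doublet filter (0.56) and with nearly all genes clustering (0.58). Between goblet-like and deep crypt secretory-like cells Ly6d was 1.89 without the doublet filter, -0.25 at resolution 1.5 and -0.31 with total UMI scaling, and Ly6e was -0.013 at resolution 0.5, -0.034 with nearly all genes clustering and -0.30 with total UMI scaling.

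Single libraries gave Ly6d values of 6.24 and 6.71 in colonocyte-like minus crypt and 0.185 and 1.54 in secretory minus crypt. Thinned sums called 1935, 1612 and 658 genes in colonocyte-like minus crypt, colonocyte-like minus secretory and goblet-like minus deep crypt secretory-like, against 3055, 2776 and 1028, and 126 in Slc37a2-led cells. DESeq2 called 1798 (colonocyte-like minus secretory), 1165 (secretory minus crypt), 630 (goblet-like minus deep crypt secretory-like) and 164 (Slc37a2-led). Total UMI scaling called 1571 in goblet-like minus deep crypt secretory-like. Outside colonocyte-like cells Ly6d rested on few UMIs, and calls there came and went with the setting: it was called at -1.80 (stem-like cells alone) and 1.92 (no doublet filter) in secretory minus crypt and at 1.89 (no doublet filter) in goblet-like minus deep crypt secretory-like (edgeR adjusted p = 0.00254, 0.0126 and 0.000472), so no direction is drawn.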

Other observations

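Inside the cycling-like class Ly6e went with the secretory gene Reg4, a lectin gene of deep crypt secretory cells. Cycling-like cells with 3 or more Reg4 UMIs, 40 in replicate 1 and 26 in replicate 2, held Ly6e at 3074 and 2581 CPM, close to the 3135 and 2704 CPM of deep crypt secretory-like cells. Cycling-like cells without a Reg4 UMI, 46 and 11 cells, held it at 1505 and 1214 CPM, against 1297 and 905 CPM in stem-like cells, whose counting intervals (1223 to 1375 and 822 to 994 CPM) lay below. The counting intervals of these groups of cells did not overlap in either library (2866 to 3293 against 1376 to 1643, and 2379 to 2795 against 1001 to 1460 CPM). Lypd8 stood at 1222 and 1169 CPM in the cells with Reg4 against 1662 and 924 CPM in those without, and so did not differ in 1 direction. Median depths were 6760 and 9437 UMIs with Reg4 against 7016 and 8222 UMIs without. Cycling-like cells had a median doublet score of 0.64, against 0.48 in deep crypt secretory-like and 0.46 in stem-like cells. The part of doublets in the Ly6e difference was not tested. Cycling-like cells with Reg4 UMIs below the limit of 3 were left out of both groups. The split was chosen after the values were seen and was not tested.

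The colonocyte-like cells with 5 or more Ly6d UMIs were richest, relative to those with none, in Gm26691, at 91.6 and 145.7 CPM against 9.01 and 7.80 CPM, followed by Asphd2 at 103 and 109 CPM against 25.8 and 32.8 CPM. Ubd, the ubiquitin-like gene FAT10, stood at 435 and 364 CPM against 201 and 148 CPM, and Duoxa2, which matures the hydrogen peroxide producing oxidase Duox2, at 378 and 540.1 CPM against 215 and 193 CPM. Reg3b, an antibacterial lectin gene, stood at 1177 and 1014 CPM against 657 and 509 CPM. Ak4 (306 and 346 against 140 and 99.9 CPM) and Chml (117 and 158 against 57.6 and 59.3 CPM) ranked above Reg3b and Duoxa2. Ubl4a (149 and 218 against 78.6 and 96.7 CPM) ranked above Duoxa2. Reg3b-led cells made up 11.4% and 5.56% of the cells with 5 or more Ly6d UMIs, against 35.7% and 28.2% of those with none. These genes were picked for their ratio in these same cells, and some of them took part in clustering.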
